A study of Mus musculus with 6 samples.

Results

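The pyruvate dehydrogenase complex links glycolysis to the mitochondrial citrate cycle, and the transcripts of 10 genes that build or control it were followed in visceral fat of mice with and without nuclear myosin 1. They were Pdha1, Pdhb, Dlat and Pdhx, which encode subunits of the complex, Pdk1, Pdk2 and Pdk4, which encode kinases that switch it off, and Pdp1, Pdp2 and Pdpr, which encode subunits of the phosphatases that switch it on again. These 10 were taken from 46603 gene identifiers in the count tables, and all 10 passed the filter on low counts, which kept 15828 genes. The first 9 were listed by function, while Pdpr was chosen by its measured rise between the same groups. The difference of Pdpr between genotypes is therefore given as a description with no test.

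The samples were abdominal fat pieces, labelled visceral adipose, of untreated C57/Bl6 mice aged 18 months. Of the 6 RNA libraries, 3 were wild type (WT) and 3 lacked nuclear myosin 1 (NM1 KO), an isoform of the motor protein encoded by Myo1c. The labels do not say which part of the locus was altered, in which cells, or whether each library came from a separate animal, so the spread behind each p-value is that of these libraries alone and may be technical. Each library held between 24677758 and 33537818 gene counts.

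Pyruvate dehydrogenase turns pyruvate into acetyl-CoA, which fat cells burn in the citrate cycle or export as citrate for fatty acid synthesis. Phosphorylation of the alpha chain of its E1 enzyme by the kinases stops the reaction, and removal of the phosphate by the phosphatases restarts it. Pdk4 is known as the kinase induced by fasting, glucocorticoids and fatty acids, Pdk1 as a target of the hypoxia-inducible factor, and Pdk2 as a broadly expressed kinase. The product of Pdpr is a regulatory subunit that lowers the activity of the catalytic subunit encoded by Pdp1.

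The tissue label was checked against markers. All 10 adipocyte markers were detected, with Adipoq, adiponectin, at a mean of 2478 ± 76.1 CPM in WT and 2132 ± 281 CPM in NM1 KO (SD, n = 3 each; CPM are counts per 1000000 counts after scaling). Of 6 brown fat markers, Ucp1 lay at 0.515 CPM or lower in all libraries, while the 4 that were tested had positive log2 fold changes. Among these, edgeR called Cidea, a lipid droplet protein, which rose from 2.23 ± 0.239 to 8.39 ± 3.08 CPM (SD, n = 3 each; edgeR adjusted p = 0.0287). Of 7 skeletal muscle markers, 6 stayed at 3.14 CPM or lower, and Acta1, skeletal actin, lay between 19.5 and 128 CPM with overlapping genotypes. All 5 genes of the male reproductive tract were at 0. The 4 B cell markers summed to between 50.5 and 97.3 CPM in WT and between 23.6 and 229 CPM in NM1 KO. The 7 T cell markers summed to between 11.4 and 13.9 CPM in WT and between 10.5 and 35.9 CPM in NM1 KO. Of 5 pancreatic acinar markers only Cela1 was tested, at 30.4 ± 10.3 and 58.4 ± 6.61 CPM (edgeR adjusted p = 0.0859). DESeq2 and limma-voom each called it higher. The other acinar markers, Cpa1, Ctrb1, Pnlip and Amy2b, were at 0.0322 CPM or lower in all libraries. Over the whole table, edgeR called 441 genes as higher in NM1 KO and 232 as lower, a call being an adjusted p under 0.05 in its quasi-likelihood test with Benjamini-Hochberg adjustment. The locus of the targeted isoform, Myo1c, had a log2 fold change of -0.47 ± 0.17 (SE) with an edgeR adjusted p of 0.151. Its count covers all isoforms and does not check the knockout.

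CPM ranges did not overlap between genotypes for 3 members, of which Pdpr was chosen by its rise, and for 29.9% of all tested genes. The promoters of these 3 members are shown. Each is the 250 bases before the gene start in RefSeq on GRCm38.p6, 5′ to 3′ on the gene's strand, with matches to 6 motifs in capitals. For Pdk1 and Pdk2 it is the most upstream of 2 entries, and the RefSeq start of Pdpr lies inside the gene as GENCODE annotates it. Pdpr lies on the plus strand at chr8:111094495-111094744, Pdk1 on the plus strand at chr2:71872974-71873223, and Pdk2 on the minus strand at chr11:95041372-95041621.
Pdpr: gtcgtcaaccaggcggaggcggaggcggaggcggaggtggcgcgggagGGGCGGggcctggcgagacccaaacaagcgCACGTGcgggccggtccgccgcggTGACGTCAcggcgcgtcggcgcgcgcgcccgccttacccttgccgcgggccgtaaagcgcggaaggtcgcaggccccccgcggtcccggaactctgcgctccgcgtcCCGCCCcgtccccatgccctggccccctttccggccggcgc
Pdk1: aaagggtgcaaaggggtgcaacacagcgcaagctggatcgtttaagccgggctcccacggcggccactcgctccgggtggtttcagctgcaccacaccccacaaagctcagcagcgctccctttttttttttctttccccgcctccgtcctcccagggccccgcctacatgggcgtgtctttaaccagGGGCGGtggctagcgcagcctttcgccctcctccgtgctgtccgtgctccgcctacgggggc
Pdk2: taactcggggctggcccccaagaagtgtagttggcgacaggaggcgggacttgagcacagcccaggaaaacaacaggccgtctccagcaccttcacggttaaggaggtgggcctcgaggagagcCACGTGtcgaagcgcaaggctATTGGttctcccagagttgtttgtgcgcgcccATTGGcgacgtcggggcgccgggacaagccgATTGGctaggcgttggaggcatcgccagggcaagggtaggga

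Both strands were searched for 6 motifs, chosen with these sequences in view. The cAMP response element was searched as TGACGTCA and the core of the hypoxia response element as ACGTG alone. The variant GCGTG of this core, which the Pdk1 promoter shown above holds, was not searched. The CCAAT box was searched by the letters of its name, and the GC box as GGGCGG. A forkhead site was searched as GTAAACA, and the core bound by many nuclear receptors as AGGTCA. Among the 9 members with an entry in the promoter table, Pdpr alone held TGACGTCA, 148 bases before its start, while 1.55% of all 32851 promoters of the same length held it. Pdpr, Pdk2 and Pdp2 each held the palindrome that contains ACGTG on both strands, so that these matches overlap, 172, 126 and 219 bases before the start, and Pdhb held a single ACGTG. Of all promoters, 16.6% held ACGTG. The CCAAT box lay at 3 places each in Pdk2 and Pdhb, at 2 in Pdp2 and at 1 in Pdk4, and 33.8% of all promoters held it at 1 place or more. The GC box lay at 2 places each in Pdpr, Pdhb and Pdhx and at 1 each in Pdk1, Dlat and Pdp2, and 32.7% of all promoters held it. The forkhead letters (3.17% of all promoters) and those of the nuclear receptor core (14.0%) were found in none of the 9. These matches describe letters in the window and say nothing of binding.

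Setting NM1 KO against WT addresses whether the transcripts of this complex and its switches differ in aged fat when nuclear myosin 1 is missing. None of the 9 members listed by function was called by edgeR, where 4.25% of all tested genes were called in either direction. Of the 9, 2 had an unadjusted p under 0.05, Pdk1 higher and Pdk2 lower, and DESeq2 and limma-voom each called those 2. Of all genes, 23.7% had an unadjusted p under 0.05 in edgeR, DESeq2 called 14.2% and limma-voom 10.4%. The CPM ranges of the genotypes did not overlap for the same 2 of 9, or 22.2%, against 29.9% of all tested genes. The median log2 fold change of the 9 was 0.050, and that of all tested genes -0.0021. The median size of the change regardless of sign was 0.18 in the 9 and 0.27 in all tested genes.

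**Figure D1:**
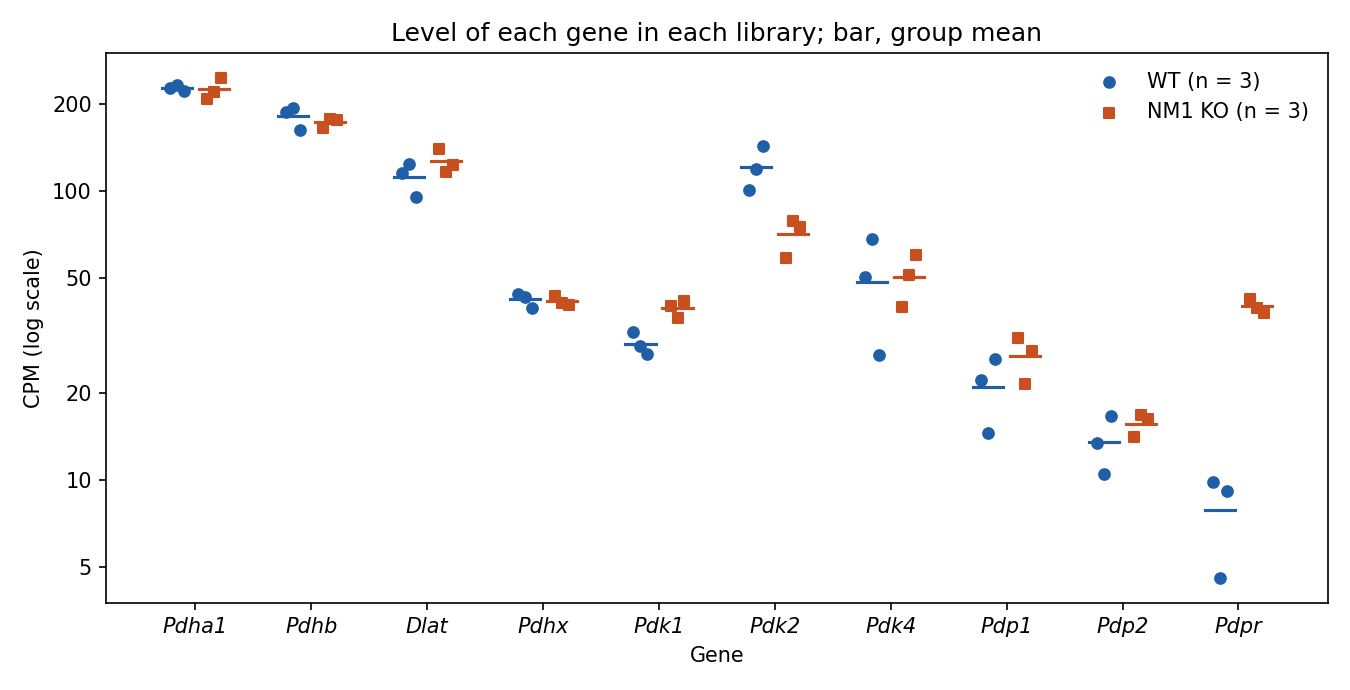
Level of each of the 10 genes in each library, in CPM on a log axis, with circles for the 3 WT libraries, squares for the 3 NM1 KO libraries and a bar at each group mean. The points of the genotypes are apart for Pdk1, Pdk2 and Pdpr, and overlap for the other genes.

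No gene of the catalytic core was called. In all values below, the libraries stand in the order of their replicate number. Pdha1 (ENSMUSG00000031299, chromosome X, 160122209 to 160138413 on GRCm38), which encodes the alpha chain of E1 that the kinases phosphorylate, had 227, 234 and 223 CPM in WT and 209, 221 and 247 CPM in NM1 KO. The ranges overlapped, with the lowest and the highest value both in NM1 KO. Map3k15, at 3.93 CPM or lower, overlaps it on the opposite strand. The log2 fold change of Pdha1 was -0.016 with a 95% confidence interval from -0.26 to 0.23 (edgeR adjusted p = 0.943). Pdhb, the beta chain of E1, had 188, 195 and 163 CPM in WT and 165, 178 and 176 CPM in NM1 KO (log2 fold change -0.071, interval -0.32 to 0.18). All 3 NM1 KO values of Pdhb lay inside the WT range. A processed pseudogene 97.0% identical to Pdhb over 1079 bases, Gm6123, had at most 0.671 CPM, and reads shared with it could have been lost or split.

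Dlat, the E2 acetyltransferase that forms the core of the complex, had 116, 125 and 95.5 CPM in WT and 140, 117 and 124 CPM in NM1 KO. The groups overlapped, and the log2 fold change was 0.18 with an interval from -0.13 to 0.49. Pdhx, the binding protein that anchors E3 to the core, had 44.3, 43.2 and 39.4 CPM in WT and 43.4, 41.1 and 40.3 CPM in NM1 KO (log2 -0.024, interval -0.26 to 0.21). It varied least of all members among the NM1 KO libraries, with a coefficient of variation of 3.79%. For these 4 subunits the intervals leave out any change of 0.5 or more on the log2 scale. Dld, the E3 dihydrolipoamide dehydrogenase that other complexes share, is not among the 10 and had a mean of 162 ± 6.12 CPM in WT and 170 ± 45 CPM in NM1 KO (SD, n = 3 each). Its NM1 KO values, 208, 120 and 181 CPM, lay on both sides of the WT range.

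**Figure D2:**
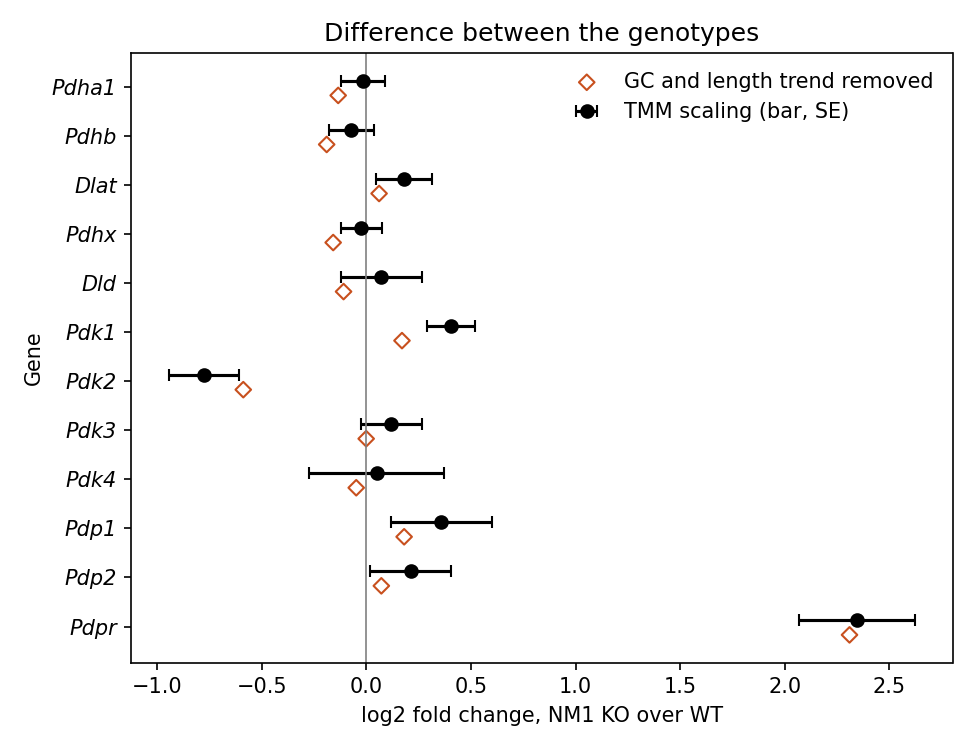
Log2 fold change of NM1 KO over WT for the 10 genes and for Dld and Pdk3, as filled points with SE bars, and as open diamonds after the correction for GC content and gene length. Pdk2 lies at -0.78, Pdk1 at 0.41 and Pdpr at 2.35, and the diamonds of Pdk1 and Pdk2 lie nearer to 0.

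The 2 of the 9 genes whose ranges were apart were both kinases, and they differed in opposite directions. Pdk2 (ENSMUSG00000038967, chromosome 11, 95026258 to 95041354) had 101, 120 and 144 CPM in WT and 58.7, 79.1 and 75.0 CPM in NM1 KO. Every NM1 KO value lay below every WT value. The log2 fold change was -0.78 ± 0.17 (SE), with an interval from -1.17 to -0.38 and an edgeR adjusted p of 0.0524, so Pdk2 was not called at the threshold of 0.05. Of all tested genes, 15.4% had a larger change in either direction. Over the 18 alternative settings the adjusted p of Pdk2 ranged from 0.00117 with DESeq2 to 0.155 without WT replicate 3. It passed the threshold in 9 of the 18. Pdk2 lies 19.4 Mb from Myo1c on the same chromosome.

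Pdk1 (ENSMUSG00000006494, chromosome 2, 71873224 to 71903858) had 32.5, 29.2 and 27.3 CPM in WT and 40.1, 36.4 and 41.6 CPM in NM1 KO. All 3 NM1 KO values were above the WT range. The log2 fold change was 0.41 ± 0.12 (SE), with an interval from 0.13 to 0.68 and an edgeR adjusted p of 0.0937. The transcripts of Pdk2 had the highest GC content of the members, 56.9%, and those of Pdk1 had 47.2%. Pdk1 had the longest exonic length of the members, 7779 bases, and Pdk2 the shortest, 3163 bases. The trends with GC content and with length were removed together. After correction of every library for GC content and gene length, the log2 fold change of Pdk2 was -0.59 (edgeR adjusted p = 0.0788) and that of Pdk1 was 0.17 (edgeR adjusted p = 0.365), no larger in size than those of Pdhb (-0.19) and Pdp1 (0.18).

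Pdk4 (ENSMUSG00000019577, chromosome 6, 5483351 to 5496309) had 50.4, 68.2 and 27.2 CPM in WT and 39.6, 51.3 and 60.0 CPM in NM1 KO. It varied most of all members in WT, with a coefficient of variation of 42.4%, and the WT libraries held both its highest and its lowest value. The log2 fold change was 0.050 with an interval from -0.71 to 0.81, the widest among the 9. Pdk3, the remaining kinase and not among the 10, had 20.2 ± 2.48 CPM in WT and 21.9 ± 2.26 CPM in NM1 KO (SD, n = 3 each; log2 0.12, interval -0.22 to 0.46).

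Levels were compared between genes only after division by exonic length, as CPM per kb. In WT the order was Pdha1 (61.0 ± 1.48 CPM per kb, SD, n = 3), Pdhb (47.1 ± 4.33), Dld (43.9 ± 1.66), Pdk2 (38.4 ± 6.71), Dlat (22.9 ± 3.06), Pdk4 (13.8 ± 5.87), Pdhx (10.8 ± 0.657), Pdk3 (7.87 ± 0.968), Pdp1 (4.66 ± 1.32), Pdk1 (3.82 ± 0.336), Pdp2 (2.38 ± 0.538) and Pdpr (1.57 ± 0.569). The ranges of neighbours in that order overlapped for Pdhb and Dld, Dld and Pdk2, Pdk4 and Pdhx, Pdp1 and Pdk1, and Pdp2 and Pdpr. Within single WT libraries, Pdp2 was above Pdpr each time (2.37 and 1.96, 1.85 and 0.915, 2.93 and 1.83 CPM per kb). The others of these pairs changed order between WT libraries. In NM1 KO, Pdk2 (22.4 ± 3.41 CPM per kb) came after Dlat (25.9 ± 2.38), with overlapping ranges, and Pdpr (7.95 ± 0.431) moved from the last place to the place after Pdk3 (8.55 ± 0.882), again with overlapping ranges. The lengths are unions of all annotated exons, so a gene with long rarely used exons is set too low.

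Within each library, Pdk2 held the largest share of the summed per-length level of the 4 kinases. Its share was 54.8%, 54.2% and 71.4% in WT and 42.8%, 46.5% and 44.0% in NM1 KO. The genotypes did not overlap. The share of Pdk1 was 6.02% ± 0.985 in WT and 10.2% ± 1.61 in NM1 KO, that of Pdk3 12.3% ± 1.35 and 17.1% ± 2.45, and that of Pdk4 21.5% ± 8.25 and 28.3% ± 2.99 (SD, n = 3 each). The summed kinase level was 58.4, 69.9 and 63.5 CPM per kb in WT and 43.3, 53.8 and 54.0 in NM1 KO, again without overlap. Shares and sums contain Pdk2, so they restate its difference on the scale of the family and carry no test of their own.

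**Figure D3:**
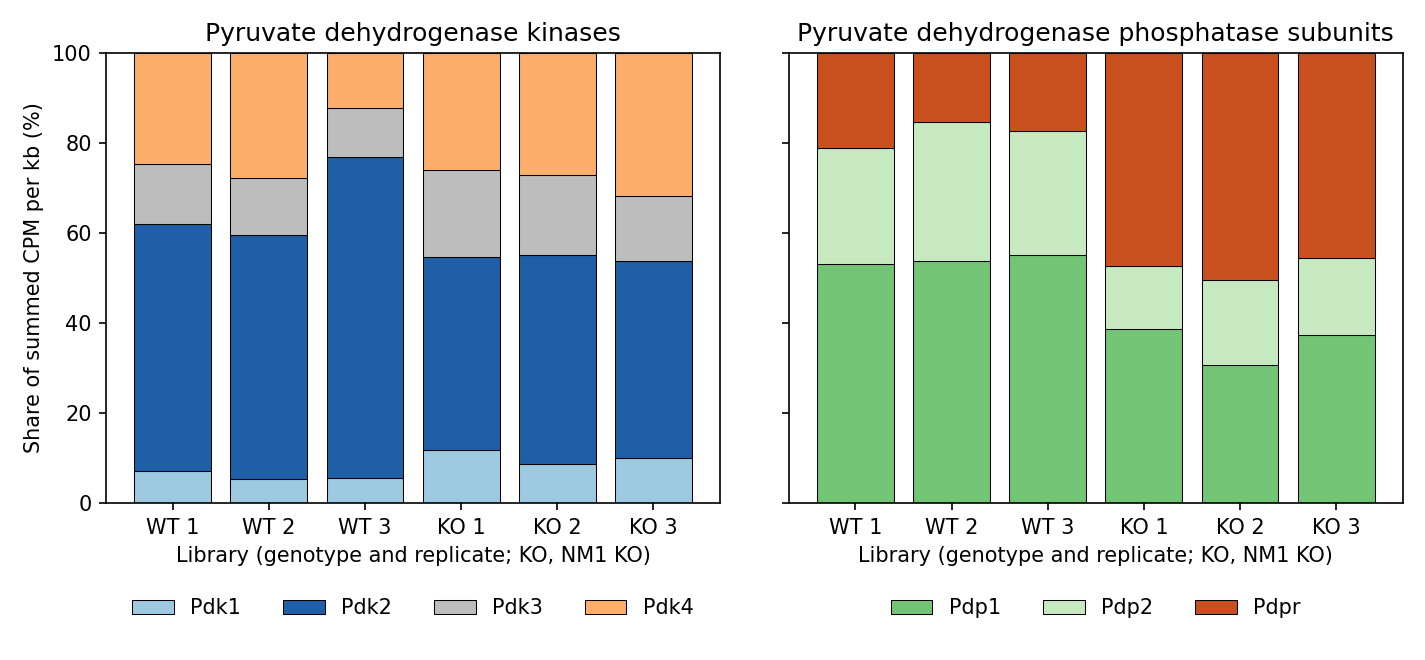
Share of each gene in the summed CPM per kb of its family, in percent, as stacked bars for each of the 6 libraries, with the 4 kinases on the left and the 3 phosphatase subunits on the right. Pdk2 takes 54.2% to 71.4% of the kinase bars in WT and 42.8% to 46.5% in NM1 KO, and Pdpr takes 15.3% to 21.2% of the phosphatase bars in WT and 45.5% to 50.5% in NM1 KO.

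Of the phosphatase genes, the 2 that encode catalytic subunits were not called and had overlapping groups, and the regulatory one lay far apart. Pdp1, the calcium-stimulated catalytic subunit, had 22.2, 14.5 and 26.2 CPM in WT and 31.1, 21.5 and 28 CPM in NM1 KO. The groups overlapped, and the log2 fold change was 0.36 with an interval from -0.21 to 0.92 (edgeR adjusted p = 0.410). Pdp2, the other catalytic subunit, had 13.5, 10.5 and 16.7 CPM in WT and 14.1, 16.8 and 16.3 CPM in NM1 KO (log2 0.21, interval -0.24 to 0.66). WT replicate 2 was the lowest of the 6 libraries for Pdp1, Pdp2 and Pdpr alike.

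Pdpr (ENSMUSG00000033624, chromosome 8, 111094630 to 111137074) had raw counts of 267, 144 and 229 in the WT libraries and of 1315, 1297 and 1044 in the NM1 KO libraries. As CPM these were 9.87, 4.6 and 9.18 in WT and 42.3, 39.6 and 38.0 in NM1 KO. The NM1 KO libraries stood close together, with a coefficient of variation of 5.42%, and the lowest of them was far above the highest WT library. The log2 fold change was 2.35 ± 0.28 (SE), or 5.08-fold, and 164 of the 15828 tested genes had a higher one. It was 2.31 after the correction for GC content and length. The ratio of Pdpr to the sum of Pdp1 and Pdp2, per length, was 0.219 ± 0.0452 in WT and 0.917 ± 0.0946 in NM1 KO (SD, n = 3 each). Pdpr was chosen by its rise, so this ratio and the phosphatase shares restate that difference and carry no test of their own.

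No coding gene near Pdpr was called. Of 13 coding genes within 300 kb on either side, 12 were tested, with 0 calls from edgeR, DESeq2 and limma-voom. An unadjusted p under 0.05 in edgeR was found for 2. Of all tested genes, edgeR called 4.25%, DESeq2 14.2% and limma-voom 10.4%, and 23.7% had an unadjusted p under 0.05 in edgeR. The log2 fold changes of the 12 ran from -0.49 to 0.37 with a median of 0.029. The highest was that of Glg1, a Golgi membrane protein whose gene lies 17.3 kb beyond the end of Pdpr (interval 0.082 to 0.67, edgeR adjusted p = 0.13). Clec18a, the nearest gene before the start of Pdpr at 2.20 kb, had at most 0.222 CPM in any library. The transcript 9430091E24Rik, which overlaps Pdpr on the opposite strand, lay between 1.85 and 2.96 CPM in all 6 libraries. How the counting treated strand is not stated in the labels, so its reads and those of Pdpr cannot be told apart in the overlap. Pdp2 lies 6.5 Mb away on the same chromosome.

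**Figure D4:**
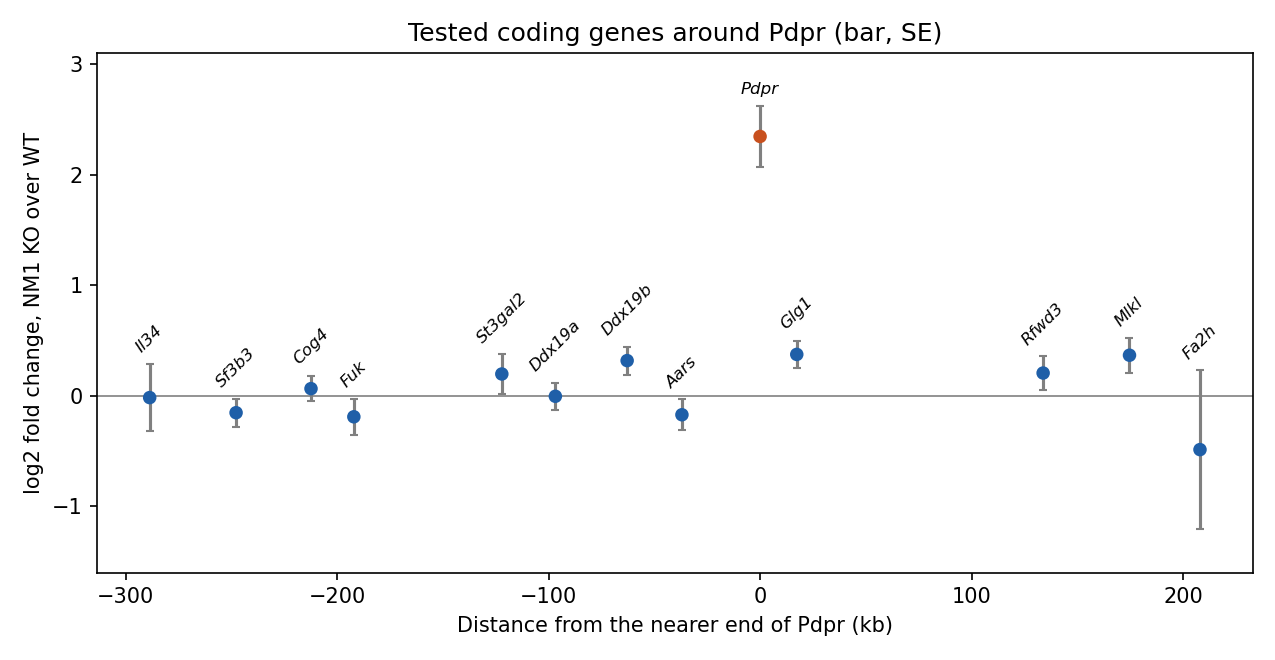
Log2 fold change of NM1 KO over WT, with SE bars, for the tested coding genes within 300 kb of Pdpr, placed by their distance in kb from the nearer end of that gene. Pdpr stands at 2.35, and its 12 neighbours lie between -0.49 and 0.37.

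The genes whose levels ran most like those of Pdpr over the 6 libraries were found by the root mean square difference of log2 CPM after centring each gene on its mean, among 12992 other coding genes whose mean reached 1 CPM. These were Adamts12, a secreted metalloprotease, at a difference of 0.10 log2 units, Otop1, a proton channel, at 0.23, and Qprt, an enzyme of NAD synthesis, at 0.23. Adamts12 had 5.03, 2.43 and 4.65 CPM in WT and 20.8, 17.7 and 16.5 CPM in NM1 KO, so WT replicate 2 was its lowest library as well. The 3 genes lie on chromosomes 15, 5 and 7. Pdpr was chosen by its difference, so this likeness is a description.

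By the same measure, Pdk4 ran closest to Fjx1 (0.12 log2 units), Acss2 (0.14) and Haspin (0.15). Acss2 makes acetyl-CoA from acetate. Fasn, fatty acid synthase, and Acly, which makes cytosolic acetyl-CoA from citrate, came at places 6 and 7, both at 0.16, and were picked out after their values were seen. Acss2 had 110, 119 and 54.7 CPM in WT and 68.9, 99.0 and 101 CPM in NM1 KO. Acly had 529, 665 and 269 CPM in WT and 315, 405 and 506 CPM in NM1 KO. Like Pdk4, all 3 were lowest in WT replicate 3, highest in WT replicate 2 and lowest within NM1 KO in replicate 1. The other genes listed below as users of acetyl-CoA, Acaca, Cs and Slc25a1, did not share all of this order. Acaca (279 CPM) and Cs (375 CPM) were lowest of the 6 libraries in NM1 KO replicate 1. Within NM1 KO, Slc25a1 was lowest in replicate 3, at 270 CPM. These are levels in 6 libraries, and no test was made of them.

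**Figure D5:**
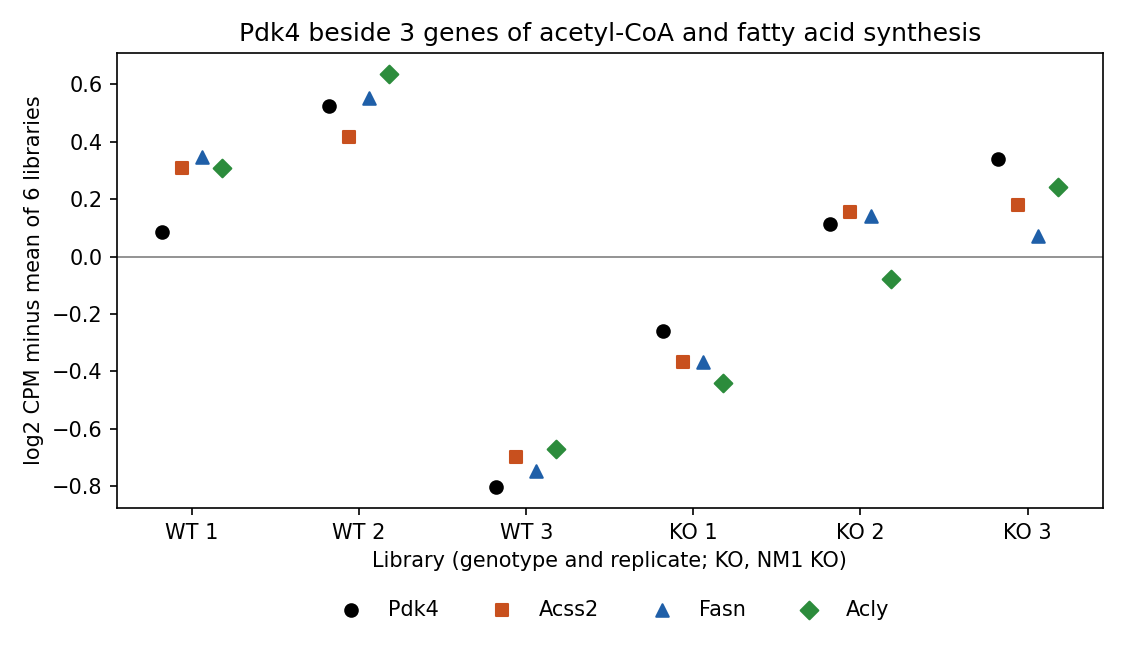
Log2 CPM of Pdk4, Acss2, Fasn and Acly in each of the 6 libraries, minus the mean of the 6 for each gene. All 4 genes are lowest in WT replicate 3 and highest in WT replicate 2, and in NM1 KO they are lowest in replicate 1.

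Genes that supply the complex with substrate and cofactors were followed in short lists. Of all tested genes, edgeR called 4.25% in either direction, DESeq2 14.2% and limma-voom 10.4%. In edgeR, 23.7% had an unadjusted p under 0.05. At these shares a short list may hold few or no calls. The mitochondrial pyruvate carrier subunits Mpc1 (67.0 ± 14.6 CPM in WT, 67.6 ± 6.64 in NM1 KO, SD, n = 3 each) and Mpc2 (123 ± 20.3 and 118 ± 11.5) had log2 fold changes of 0.011 and -0.058. Of 14 genes of pyruvate supply and use, edgeR called 0, with 1 (lower) at an unadjusted p under 0.05, DESeq2 called 0 and limma-voom 1, and the median log2 fold change was 0.0071. Pcx, pyruvate carboxylase, which draws pyruvate to oxaloacetate instead, stood at a WT mean of 1050 ± 97.9 CPM and an NM1 KO mean of 868 ± 112 CPM (log2 -0.28, edgeR adjusted p = 0.295). Ldha, lactate dehydrogenase A, had 1020 ± 318 and 914 ± 102 CPM (log2 -0.16, edgeR adjusted p = 0.711).

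For the lipoyl arm that Dlat and Pdhx carry, 11 genes of lipoate synthesis were tested. None was called by edgeR, against 4.25% of all tested genes, and 1 (lower) had an unadjusted p under 0.05, against 23.7%. DESeq2 made 1 call and limma-voom 0. Of the 11, 9 had a negative log2 fold change, with a median of -0.13. Glrx5, which helps to build iron-sulfur clusters, had means of 123 ± 15.6 CPM (WT) and 121 ± 6.28 CPM (NM1 KO), and Ndufab1, the mitochondrial acyl carrier protein, of 78.5 ± 9.0 and 66.1 ± 6.56 (SD, n = 3 each). For 5 genes of thiamine transport and use, edgeR, DESeq2 and limma-voom made 0 calls, and 0 had an unadjusted p under 0.05. Thtpa, thiamine triphosphatase, had a log2 fold change of -0.23 (interval -0.60 to 0.13).

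Of 10 genes of the related ketoacid dehydrogenases, with a kinase and mitochondrial phosphatases listed beside them, edgeR called 2, against 4.25% of all tested genes. These were 1 subunit gene lower and 1 phosphatase gene higher, with a list median of -0.15. Pptc7, a phosphatase of the mitochondrial matrix, rose from 29.6 ± 1.48 CPM in WT to 43.2 ± 1.71 in NM1 KO (SD, n = 3 each; log2 0.54 ± 0.10 SE, edgeR adjusted p = 0.0342). Whether Pptc7 acts on these complexes was not tested. Ppm1k, the other phosphatase gene listed, was not called (log2 -0.18, edgeR adjusted p = 0.665). Bckdhb, the E1 beta chain of the branched-chain ketoacid complex and the counterpart of Pdhb, fell from 82.5 ± 6.58 to 56.5 ± 5.66 CPM (log2 -0.55 ± 0.12 SE, edgeR adjusted p = 0.0490). Ogdh, E1 of the oxoglutarate complex, had a log2 fold change of -0.072 (interval -0.35 to 0.21) and Dlst, its E2, one of -0.14 (interval -0.40 to 0.12). Of the relatives of Pdpr in folate-linked one-carbon metabolism, Dmgdh was at 0 in all 6 libraries and Sardh had a log2 fold change of 0.14 (interval -0.22 to 0.51). Amt, of the glycine cleavage system, had 8.21 ± 2.12 CPM in WT and 4.49 ± 0.676 in NM1 KO and was not called by edgeR (log2 -0.87, edgeR adjusted p = 0.0982), while DESeq2 and limma-voom each called 1 of these relatives lower.

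Among 6 genes of mitochondrial calcium uptake, which bears on the calcium-stimulated phosphatase, the 3 tools made 0 calls. Of all tested genes, edgeR called 4.25%. An unadjusted p under 0.05 was found for 1 (higher), against 23.7% of all tested genes in either direction. Smdt1, a regulator of the calcium uniporter, had a log2 fold change of 0.011 (interval -0.25 to 0.27). The users of acetyl-CoA also held no call by any of the 3 tools and no unadjusted p under 0.05 among 5 genes. Fasn had means of 3234 ± 1330 CPM (WT) and 2842 ± 514 CPM (NM1 KO), and Acly of 488 ± 202 and 409 ± 95.7 (SD, n = 3 each).

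Genes known to act on Pdk4 transcription, or to be induced with it, were followed in 3 lists. Of all tested genes, edgeR called 4.25% in either direction, DESeq2 14.2% and limma-voom 10.4%. In edgeR, 23.7% had an unadjusted p under 0.05. Of 13 receptors, factors and insulin signalling genes, edgeR called 1 higher and 0 lower, with 4 (higher) at an unadjusted p under 0.05. DESeq2 called 4 higher and limma-voom 3. The edgeR call was Irs1, an adaptor of the insulin receptor, which rose from 11.3 ± 0.508 to 21.8 ± 5.24 CPM (SD, n = 3 each; log2 0.94 ± 0.20 SE, edgeR adjusted p = 0.0452). The others of the 4 at an unadjusted p under 0.05, picked out after their values were seen, were Ppara, Foxo3 and Esrrg. The fatty acid receptor Ppara had a log2 fold change of 0.95 (edgeR adjusted p = 0.0631). Its mean level was low, 2.71 (WT) against 5.23 CPM (NM1 KO). The forkhead factor Foxo3 followed (log2 0.67, edgeR adjusted p = 0.0669). The orphan receptor Esrrg (log2 1.85, edgeR adjusted p = 0.0977) was scarce. No WT library exceeded 0.361 CPM of Esrrg, and the NM1 KO libraries reached 1.93, 1.01 and 0.583 CPM. Its large log2 fold change therefore rests on very low levels. Pparg had a log2 fold change of 0.090 (interval -0.42 to 0.60) and Nr3c1, the glucocorticoid receptor, one of 0.47 (interval -0.18 to 1.11). Of 9 tested genes induced by fasting or PPAR, none was called by any of the 3 tools and none had an unadjusted p under 0.05. Angptl4, an inhibitor of lipoprotein lipase, had a log2 fold change of -0.43 (edgeR adjusted p = 0.530), and Acadm, an enzyme of fat oxidation, one of 0.24 (edgeR adjusted p = 0.303).

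Of 10 glucocorticoid targets, edgeR called 0, with 3 (lower) at an unadjusted p under 0.05 against 23.7% of all genes in either direction, and DESeq2 and limma-voom each called 1 lower. The 3 were Per1 (log2 -0.66), Zbtb16 (log2 -0.64) and Fkbp5 (log2 -0.36). Of the 10, 8 had a negative log2 fold change, with a median of -0.49. Tsc22d3, the glucocorticoid-induced leucine zipper, had 0.19 (interval -0.39 to 0.76), and Mt1, a metallothionein, -1.05 (interval -2.61 to 0.52), with 738 CPM in WT replicate 2 and at most 191 CPM in any other library. Of 17 other genes of the hypoxia response, the response for which Pdk1 is known, edgeR called 1 lower, against 4.25% of all tested genes. An unadjusted p under 0.05 was found for 1 higher and 3 lower. DESeq2 and limma-voom each called 1 higher and 3 lower, against 14.2% and 10.4% of all tested genes. The median was -0.019. The edgeR call was Vegfa, vascular endothelial growth factor, which fell from 374 ± 7.34 to 179 ± 44.9 CPM (SD, n = 3 each; edgeR adjusted p = 0.0304). The higher gene in edgeR was Car9, a carbonic anhydrase, at low means of 0.716 (WT) and 1.79 CPM (NM1 KO) (log2 1.32, edgeR adjusted p = 0.0593). The glycolytic genes Aldoa (log2 0.083) and Pfkfb3 (log2 0.13) had intervals from -0.32 to 0.49 and from -0.43 to 0.70.

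Marker levels of several cell types differed between the genotypes. In bulk samples a change in the number of cells of a type and a change in RNA per cell cannot be told apart. Of all tested genes, edgeR called 4.25%, DESeq2 14.2% and limma-voom 10.4%. In edgeR, 23.7% had an unadjusted p under 0.05, and for 29.9% the CPM ranges of the genotypes did not overlap. Of 10 adipocyte markers, 8 had a negative log2 fold change and none was called by edgeR (unadjusted p under 0.05 in 1 higher and 3 lower genes, calls of 1 higher and 2 lower with DESeq2 and of 1 lower with limma-voom). Their summed level was between 30989 and 34516 CPM in WT and between 29241 and 31115 CPM in NM1 KO. Of 9 macrophage markers, 5 were called higher, and their sum lay between 1637 and 2120 CPM in WT and between 3378 and 4038 CPM in NM1 KO. Of 7 markers of vascular endothelium, 5 were called lower, with sums from 783 to 1011 CPM in WT and from 313 to 477 CPM in NM1 KO. None of the markers of these 3 lists was at 0 in all libraries. Of 7 stromal markers 2 were called higher, of 5 mesothelial markers 1 was called lower, and 5 of 5 erythroid markers were lower with ranges apart but not called by edgeR. DESeq2 and limma-voom each called 7 macrophage and 3 stromal markers higher and 7 endothelial markers lower. DESeq2 called 2 mesothelial and 3 erythroid markers lower, and limma-voom 1 of each. The called brown fat marker is given above. The part of these shifts in the values of Pdk1, Pdk2 and Pdpr was not tested.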

How the data were processed

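Visceral fat RNA from 3 WT and 3 NM1 KO libraries was sequenced after preparation with the NEBNext Ultra II RNA kit, per the labels' protocols. Per the submitters' processing notes, reads on GRCm38 (mm10) passed through HISAT2 2.0.4 and HTSeq, with Trimmomatic 0.36, SAMtools 0.1.19 and FastQC also named. Annotation, settings and strand handling: not given in the sources used here. The authors deposited whole-number counts per Ensembl gene, without normalization. Symbols, spans and exon lengths came from GENCODE M21 on the same build, which matched 46091 of 46603 identifiers. The 10 members and all gene lists were chosen with earlier results of these data known.

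The two-sided test was the robust quasi-likelihood fit of edgeR 4.0.16 (R 4.3.3) on genotype alone, after filterByExpr and TMM scaling, and p-values were adjusted by Benjamini-Hochberg over all 15828 genes. SE values are the log2 fold change over the square root of F, and 95% intervals use the t distribution with the fit's degrees of freedom. The code was tested on simulated data. Near-identical copies were sought with BLAST 2.17.0 (at least 95% identity over 100 bases). Genes named are all 10 members, Myo1c, Dld, Pdk3, Mpc1, Mpc2, every called gene and the 2 highest genes of each pathway list, coding genes within 300 kb of Pdpr (mostly as counts), and the 3 genes most like Pdpr and Pdk4. Of the genes this rule names, 2 are not reported here. Other names were added after their values were seen.

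Alternatives were RLE, upper-quartile and unscaled library sizes, no filter, a filter of 1 CPM in 3 libraries, non-robust dispersion, DESeq2 1.42.0, limma-voom (limma 3.58.1) with sample quality weights, coding genes only, a spline offset per library for GC content and exonic length, the replicate number as a block with and without that offset, and each library left out. Figures were drawn with matplotlib 3.10.9.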

Additional observations from a re-analysis of the deposited data

How the results depend on the processing

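The count of 673 called genes was 2239 with DESeq2, 1648 with limma-voom and 336 with the replicate block, and lay between 1 and 1654 when 1 library was left out (37, 4 and 1 without WT replicates 1, 2 and 3, and 244, 1654 and 5 without NM1 KO replicates 1, 2 and 3). Of the 9 members listed by function, 0 were called in the primary fit. The number was 2 with DESeq2 and limma-voom (Pdk1 and Pdk2), and 1 (Pdk2) with library totals alone, with no filter on low counts, with the filter of 1 CPM in 3 libraries, with coding genes only, with the replicate block and with the replicate block plus the GC and length offset. It was between 0 and 1 when 1 library was left out, and the 1 came without NM1 KO replicate 2. The cause was not tested.

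The log2 fold change of Pdk2 lay between -0.89 and -0.58 and that of Pdk1 between 0.17 and 0.47 over the 18 alternatives, and that of Pdpr between 2.07 and 2.54. Pdha1 changed sign with limma-voom (0.053), without WT replicate 2 (0.0034) and without NM1 KO replicate 1 (0.053). Pdhx did so without WT replicate 1 (0.0099) and without NM1 KO replicate 3 (0.00071), and Pdk4 with the GC and length offset (-0.049), without WT replicate 3 (-0.24) and without NM1 KO replicate 3 (-0.093). With 1 library left out, Pdha1 ranged from -0.082 to 0.053, Pdhx from -0.079 to 0.0099 and Pdk4 from -0.24 to 0.38. Pdhb, Dlat, Pdp1 and Pdp2 kept their sign and were not called under any of the 18.

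The labels do not say whether the replicate numbers pair the libraries, and weak correlations with 3 libraries per genotype cannot decide it. The deviations of same-numbered libraries from their group means correlated by between -0.060 and 0.19 across genes, and not every library correlated best with its own number. The block therefore stands here only as an alternative. With 3 libraries per genotype the intervals of Pdk4, Pdp1 and Pdp2 are wide, and smaller differences were not detectable.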
